A study of Mus musculus with 12 samples.

Results

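The transcripts described here are the variable (V) segments of the T cell receptor alpha and beta chains. Their rows were chosen by summed counts: of 165 rows named as Trav (alpha) or Trbv (beta), the 96 with at least 10 counts over all 12 libraries are the members, 71 of 130 Trav rows and 25 of 35 Trbv rows, out of 55401 rows in the files. Bulk messenger RNA was sequenced from CD4 T cells sorted from the spleens of C57BL/6 mice 21 days after infection with Leishmania donovani, the protozoan parasite of visceral leishmaniasis. The 6 libraries called TLCP hold cells sorted as LAG-3+ CXCR5+ PD-1lo/int. The 6 called Tfh hold T follicular helper cells sorted as CXCR5+ PD-1hi, described by the submitters as largely of the germinal center. All 12 libraries come from infected animals of 1 strain, so no uninfected or naive T cell sample served as a control, and the ages of the mice are not given in the sources used here. Both populations carry library numbers 1 to 6, and the series description gives 6 mice.

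In developing T cells, a beta chain gene is made by joining 1 V segment to D and J segments. An alpha chain gene is made by joining 1 V segment to a J segment. A V segment is seen in messenger RNA from mature T cells as part of such a joined receptor gene. The V segment encodes the CDR1 and CDR2 loops, which mostly touch the MHC molecule, and the first residues of CDR3, which mostly touches the peptide. The share of a V segment among all V counts of its locus is therefore a coarse description of a T cell repertoire. In bulk libraries, fewer cells with a segment and less receptor RNA per cell cannot be told apart.

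In GENCODE M21 on GRCm38, the Trav rows span chromosome 14 from 52427928 to 53977678 and the Trbv rows span chromosome 6 from 40891229 to 41558452. The coding parts of the V exons below were taken from the GENCODE M21 transcripts. The first pair is shown because the share of Trbv12-1 passed the test between the populations and that of its close relative Trbv12-2 did not. Their V exons (chr6:41113775-41114067 and chr6:41119072-41119364, plus strand) have 32 differing bases over 293, printed in capitals, and are 89.1% identical.
Trbv12-1: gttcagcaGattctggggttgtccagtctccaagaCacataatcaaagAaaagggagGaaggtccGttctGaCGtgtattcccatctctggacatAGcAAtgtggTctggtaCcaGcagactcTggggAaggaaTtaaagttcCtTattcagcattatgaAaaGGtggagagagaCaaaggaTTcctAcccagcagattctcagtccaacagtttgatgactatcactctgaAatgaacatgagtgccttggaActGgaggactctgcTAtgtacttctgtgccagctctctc
Trbv12-2: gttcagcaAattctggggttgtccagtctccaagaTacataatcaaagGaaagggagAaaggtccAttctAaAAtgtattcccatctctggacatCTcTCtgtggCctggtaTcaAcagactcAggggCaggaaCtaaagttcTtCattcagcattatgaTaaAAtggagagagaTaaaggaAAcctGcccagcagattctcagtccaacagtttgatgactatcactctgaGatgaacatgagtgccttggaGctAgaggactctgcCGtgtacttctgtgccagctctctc
The next 3 are the other segments whose shares differed by both tests used below, Trbv14 (chr6:41135320-41135616), Trbv13-2 (chr6:41121539-41121832) and Trav4-4-dv10 (chr14:53683899-53684177), all on the plus strand. From here on, capitals run from the last in-frame cysteine codon to the end of the exon, the stretch that enters CDR3.
Trbv14: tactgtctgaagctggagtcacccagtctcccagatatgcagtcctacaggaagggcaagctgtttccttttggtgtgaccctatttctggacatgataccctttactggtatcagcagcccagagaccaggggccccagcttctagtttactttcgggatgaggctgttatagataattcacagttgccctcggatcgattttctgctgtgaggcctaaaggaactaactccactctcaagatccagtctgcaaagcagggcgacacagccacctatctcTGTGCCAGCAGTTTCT
Trbv13-2: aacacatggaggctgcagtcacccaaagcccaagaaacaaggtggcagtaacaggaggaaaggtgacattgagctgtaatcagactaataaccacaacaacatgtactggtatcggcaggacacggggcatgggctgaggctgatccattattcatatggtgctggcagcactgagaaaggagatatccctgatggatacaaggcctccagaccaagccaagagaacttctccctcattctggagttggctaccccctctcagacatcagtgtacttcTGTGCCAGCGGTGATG
Trav4-4-dv10: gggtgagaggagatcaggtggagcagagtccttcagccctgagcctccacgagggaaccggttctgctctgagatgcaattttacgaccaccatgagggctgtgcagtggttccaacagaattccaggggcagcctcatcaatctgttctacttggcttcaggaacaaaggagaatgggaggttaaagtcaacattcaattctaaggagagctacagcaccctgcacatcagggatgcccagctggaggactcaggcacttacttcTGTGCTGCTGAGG
Trav6-4 (chr14:53454487-53454784) and Trbv17 (chr6:41163262-41163556) are shown because they peaked in single libraries. Trav11 (chr14:53519569-53519859), the alpha segment of invariant natural killer T (NKT) cells, is shown because it had 0 counts.
Trav6-4: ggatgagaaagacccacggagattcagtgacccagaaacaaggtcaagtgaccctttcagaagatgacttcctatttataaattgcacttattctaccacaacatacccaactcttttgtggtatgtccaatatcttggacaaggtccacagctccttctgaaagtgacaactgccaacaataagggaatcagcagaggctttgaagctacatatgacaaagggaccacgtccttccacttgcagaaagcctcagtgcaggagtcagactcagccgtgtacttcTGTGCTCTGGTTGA
Trbv17: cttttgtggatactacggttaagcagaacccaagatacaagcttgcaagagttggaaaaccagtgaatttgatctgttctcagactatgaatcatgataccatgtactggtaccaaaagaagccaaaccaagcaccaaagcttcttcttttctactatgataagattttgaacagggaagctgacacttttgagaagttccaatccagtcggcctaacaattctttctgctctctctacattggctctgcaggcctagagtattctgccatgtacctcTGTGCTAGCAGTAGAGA
Trav11: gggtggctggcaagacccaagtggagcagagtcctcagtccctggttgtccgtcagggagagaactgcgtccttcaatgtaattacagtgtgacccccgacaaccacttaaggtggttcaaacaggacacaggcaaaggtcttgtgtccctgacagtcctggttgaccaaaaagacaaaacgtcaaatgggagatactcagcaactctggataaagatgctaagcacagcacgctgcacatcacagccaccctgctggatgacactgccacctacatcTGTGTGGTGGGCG
The annotated V exon of Trav11d is the same sequence without its last base, and the longest transcripts of both are identical over the shorter of them.

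Between 1181 and 1641 Trav counts and between 3499 and 4222 Trbv counts were assigned per TLCP library, and between 1479 and 2609 Trav and 4357 and 8199 Trbv counts per Tfh library. A segment at 0 counts could still hold up to 0.115% to 0.254% of the Trav counts or 0.0366% to 0.0857% of the Trbv counts (3 counts of the library's total, counting error only). Of the members, 49 Trav and 22 Trbv segments had enough counts to be tested among 12015 genes. The 22 untested Trav members held 6.65% of all Trav counts, and the 3 untested Trbv members (Trbv21, Trbv22 and Trbv12-3) held 0.163% of all Trbv counts. At the edge of the rule, Trav23 with 11, Trav13-5 with 13, Trbv12-3 with 10 and Trbv22 with 25 summed counts were inside, and Trav18 and Trav9n-1 with 9 each, Trbv10 with 4 and Trbv25 with 1 were outside. Pseudogenes made up 4 Trav and 3 Trbv members, and they held 1.13% ± 0.58 (SD, n = 6) of the Trav counts in TLCP and 1.17% ± 0.89 in Tfh, and 0.513% ± 0.188 and 0.344% ± 0.121 of the Trbv counts. The ranges overlapped for both.

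Sequence duplication bears on which Trav rows could hold counts. The C57BL/6 alpha locus carries duplicated blocks whose segments are named with d or n, and 53 Trav rows had 0 counts in all 12 libraries, 41 of them annotated as functional genes. All 41 had a copy at least 99% identical over the shorter transcript, 40 had one at 100%, and 37 held no 50-base window that is absent from every other V segment. The highest share of such unique windows among the 41 was 14.4%. Every Trav member held at least 1.01% unique windows, with a median of 56.1%, and every Trbv member held at least 98.8%. The Trav rows did not divide cleanly on this measure, since 15 members also had a copy at least 99% identical and 9 held under 20% unique windows, such as Trav6-3 with 13% and 261 summed counts. Conversely, the pseudogenes Trav4-1 and Trav12-4 had 0 counts with 94.3% and 89.6% unique windows. Reads that map to several places are not assigned to a gene in this kind of count file, and they made up 16.1% to 24.3% of the reads. Usage of the Trav segments is therefore known only as far as their sequences are unique, whereas this bears little on the Trbv shares. Summed over all rows, the segments named with n (12 members) and with d (13 members) held 12.6% ± 1.0 and 10.3% ± 1.8 of the counts in TLCP and 13.3% ± 2.6 and 10.1% ± 1.9 in Tfh (SD, n = 6), so the blocks differed between populations by less than the spread of the libraries.

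**Figure D1:**
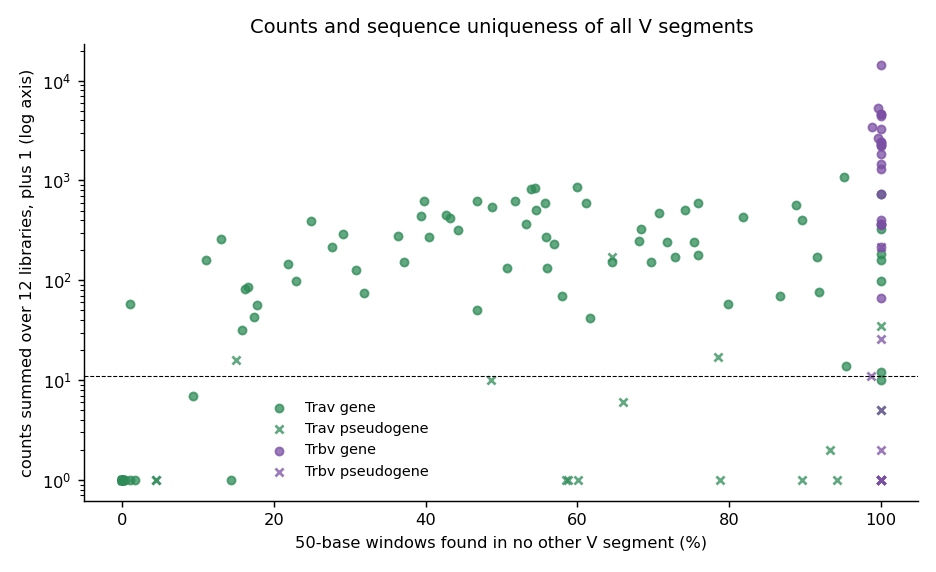
Each point is 1 of the 165 V segment rows: the x axis gives the percentage of its 50-base windows found in no other V segment, and the log y axis gives its counts summed over 12 libraries plus 1, with the dashed line at 10 counts. The 41 Trav genes with 0 counts all lie at or below 14.4% unique windows, and all Trbv rows lie near 100%.

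Beta chain usage was uneven in both populations, and Trbv3 led in every library. Trbv3 had a mean share of 23.0% over 12 libraries, and the 6 leading segments (Trbv3, Trbv13-2, Trbv19, Trbv15, Trbv2 and Trbv12-2) summed to 59.7% of the Trbv counts. Per base of annotated transcript, Trbv3 stayed first with 20.5% and Trbv13-2 second with 10.6%, whereas Trbv19 and Trbv2, whose annotated transcripts are among the longest, moved to ranks 6 and 7. The mean shares in TLCP and in Tfh correlated at 0.96 across the 25 Trbv members (a description, since shares of 1 locus sum to a whole and Trbv3 lies far from the other points). The distance between the population means, taken as the summed absolute difference of shares divided by 2, was 12.8 percentage points.

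Trbv12-1 took a smaller part of the beta chain counts in TLCP than in Tfh, and Trbv14 and Trbv13-2 took a larger part. Trbv12-1 held 1.47%, 1.01%, 1.37%, 0.687%, 1.79% and 1.49% of the Trbv counts in TLCP libraries 1 to 6. In Tfh libraries 1 to 6 it held 3.18%, 3.02%, 3.49%, 1.74%, 4.76% and 2.32%. The ranges touched only at their ends, where TLCP 5 lay just above Tfh 4, and the TLCP library was the lower one in all 6 pairs of the same number. It averaged 1.3% ± 0.39 in TLCP and 3.09% ± 1.04 in Tfh (SD, n = 6), a log2 fold change of -1.24 ± 0.24 (SE, edgeR adjusted p = 7.72e-05). An exact permutation test over the 12 libraries gave p = 0.00433 (2-sided, unadjusted). Its relative Trbv12-2 held 5.15% ± 0.72 in TLCP and 5.73% ± 0.34 in Tfh, a log2 fold change of -0.15 ± 0.11 that did not pass (edgeR adjusted p = 0.189), although without TLCP library 4, the highest of its group at 6.56%, it was -0.24 with an adjusted p of 0.0395. The difference between these relatives was not tested.

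Trbv14 held 2.14%, 1.68%, 1.49%, 0.995%, 3.18% and 1.44% in TLCP libraries 1 to 6 and 0.945%, 0.945%, 0.540%, 0.734%, 0.825% and 0.842% in Tfh libraries 1 to 6. Every TLCP library was above every Tfh library, with TLCP 4 closest to the Tfh range and TLCP 5 the farthest from it. The mean was 1.82% ± 0.76 against 0.805% ± 0.153 (SD, n = 6), a log2 fold change of 1.17 ± 0.25 (SE, edgeR adjusted p = 0.000216). The exact permutation p, 0.0022, is the smallest that 6 against 6 libraries can give. Trbv14 was the 1 tested Trbv segment whose groups did not overlap in this direction. No tested Trbv segment was lower without overlap. Among all 12015 genes scaled by the Trbv total, 58.1% were higher in TLCP without overlap and 1.28% were lower. For the tested Trav segments the counts were 0 and 0, beside 37.2% and 1.49% of all genes scaled by the Trav total. The high shares in the higher direction stem from the scaling itself, which divides by V totals that were lower in TLCP.

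Trbv13-2, which also pairs with the invariant alpha chain of many NKT cells, ranged from 7.67% (TLCP 5) to 11.8% (TLCP 2) with a median of 10.4% in TLCP. In Tfh it ranged from 6.99% (Tfh 2) to 8.74% (Tfh 6) with a median of 7.56%. Only TLCP 5 lay within the Tfh range, and the TLCP library was the higher one in all 6 pairs. The log2 fold change was 0.40 ± 0.10 (SE, edgeR adjusted p = 0.00118) and the exact permutation p was 0.00433. Together with its relatives Trbv13-1 and Trbv13-3, it made up 17.2% to 21.1% of the Trbv counts in TLCP and 12.7% to 15.9% in Tfh. The V exon of Trbv13-2 is 88.8% identical to that of Trbv13-1 and 91.8% to that of Trbv13-3.

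Across the 22 tested Trbv segments, 6 were higher and 5 were lower in share in TLCP, beside 80.8% of all 12015 genes called higher and 2.43% called lower under the same scaling. Because so many genes were called, the Benjamini-Hochberg adjustment over the table changed the p-values of the segments little: 11 of 22 also had an unadjusted p under 0.05. The median log2 fold change of share was 0.20 for the 22 segments and 0.73 for all genes under this scaling. As a stricter alternative, the shares replaced the levels of the segments in a table of log2 CPM that was fitted with limma, in which 33.5% of all genes were called. There 2 segments were higher (Trbv14, adjusted p = 0.0349, and Trbv13-2, adjusted p = 0.0495) and 1 was lower (Trbv12-1, adjusted p = 0.00796). Within the libraries numbered 1 to 3 and within those numbered 4 to 6, the log2 fold change was -1.33 and -1.16 for Trbv12-1 (edgeR adjusted p = 9.15e-06 and 0.0327). For Trbv14 it was 1.13 and 1.22 (edgeR adjusted p = 0.00155 and 0.0113). For Trbv13-2 it was 0.57 and 0.22, and the second did not pass (edgeR adjusted p = 9.35e-05 and 0.221).

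**Figure D2:**
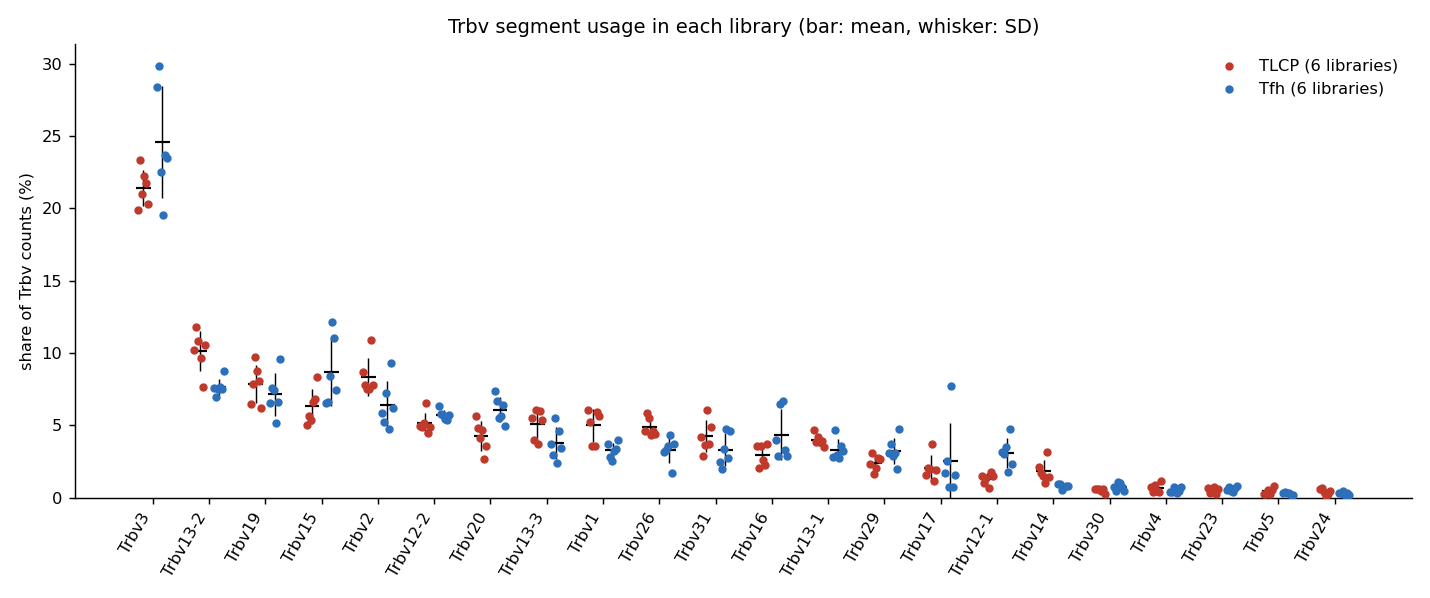
Share of Trbv counts (y axis, percent) for the 22 tested Trbv segments in each TLCP (red) and Tfh (blue) library, ordered by mean share; the bar is the mean and the whisker the SD over 6 libraries. All 6 TLCP points lie above all 6 Tfh points for Trbv14, and Trbv3 leads in every library.

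The other 4 segments that were higher in TLCP passed the edgeR test of share alone. Trbv1, used by some invariant NKT receptors, held a median of 5.42% in TLCP (3.54% to 6.07%) and 3.29% in Tfh (2.53% to 3.99%), with a log2 fold change of 0.61 ± 0.16 (edgeR adjusted p = 0.00118, limma 0.0558). Trbv26 held a median of 4.61% (4.36% to 5.87%) and 3.46% (1.71% to 4.36%), with a log2 fold change of 0.56 ± 0.16 (edgeR adjusted p = 0.00354, limma 0.0600). Their ranges overlapped at 1 end only, where TLCP 3 and TLCP 4 fell within the Tfh range for Trbv1 and Tfh 4 reached the lowest TLCP value for Trbv26. Trbv2 held 8.37% ± 1.33 and 6.43% ± 1.65 (SD, n = 6) with a log2 fold change of 0.38 ± 0.14 (edgeR adjusted p = 0.0195). TLCP 5, at 10.9%, stood apart in its group for Trbv2, and without it the log2 fold change was 0.29 (edgeR adjusted p = 0.0628). Trbv13-3 held 5.10% ± 1.0 and 3.78% ± 1.13, a log2 fold change of 0.43 ± 0.18 (edgeR adjusted p = 0.0342). It missed the threshold without TLCP 1, 3, 5 or 6 or Tfh 1, 2, 4 or 6, at log2 fold changes of 0.33 to 0.42 and adjusted p of 0.0538 to 0.0772.

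Among the segments with lower shares in TLCP, Trbv20 had the smallest adjusted p after Trbv12-1. It held a median of 4.41% in TLCP (2.7% to 5.65%) and 6.03% in Tfh (4.94% to 7.37%), was lower in TLCP in all 6 pairs, and had a log2 fold change of -0.52 ± 0.15 (edgeR adjusted p = 0.00319, limma 0.0572). Trbv15 held 6.31% ± 1.24 and 8.69% ± 2.35 (SD, n = 6), with Tfh 4 at 12.1% and Tfh 5 at 11% above all others, and a log2 fold change of -0.46 ± 0.16 (edgeR adjusted p = 0.0156). Trbv29, the remaining beta segment of invariant NKT receptors, held 2.42% ± 0.53 and 3.25% ± 0.91, a log2 fold change of -0.42 ± 0.19 (edgeR adjusted p = 0.0417). Trbv16 held 2.97% ± 0.74 and 4.36% ± 1.77, a log2 fold change of -0.55 ± 0.25 (edgeR adjusted p = 0.0493). These last calls lay near the threshold and crossed it when single libraries were left out, with the direction kept. Trbv29 missed it without TLCP 1, 3 or 4 or Tfh 1, 2 or 6 (log2 fold change -0.44 to -0.28, adjusted p 0.0510 to 0.162), and Trbv16 without TLCP 2, 4 or 5 or Tfh 1, 3 or 4 (-0.58 to -0.39, 0.0601 to 0.111). Exact permutation p-values for Trbv13-3, Trbv15, Trbv16 and Trbv29 were 0.0628, 0.0541, 0.123 and 0.0779.

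The leading segment Trbv3 ranged from 19.9% to 23.3% with a median of 21.4% in TLCP and from 19.6% to 29.9% with a median of 23.6% in Tfh. Tfh 1 and Tfh 2 were high, at 28.4% and 29.9%, while Tfh 4 was the lowest of all 12 libraries. The log2 fold change of share was -0.20 ± 0.10 and did not pass (edgeR adjusted p = 0.0597). It passed without TLCP 2 (-0.23, adjusted p = 0.0496), without Tfh 4 (-0.26, adjusted p = 0.0144) and with the library number as a block (-0.19, adjusted p = 0.0491). The block brought in 1 more Trbv segment, Trbv31, which was higher in TLCP in all 6 pairs at 4.25% ± 1.12 against 3.31% ± 1.13 (SD, n = 6). Its log2 fold change was 0.38 with the block (edgeR adjusted p = 0.00779) and 0.36 ± 0.22 without it (adjusted p = 0.13), and it was named after its values were seen. Trbv19, a beta segment of some mucosal-associated invariant T (MAIT) cell receptors, held 7.85% ± 1.34 and 7.15% ± 1.49 and did not pass (log2 fold change 0.13 ± 0.14, edgeR adjusted p = 0.370).

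Alpha chain usage was spread over more segments. The 6 leading Trav segments (Trav14-1, Trav3-3, Trav14-2, Trav14n-3, Trav21-dv12 and Trav16) summed to 24.3% of the Trav counts, 16 segments were needed to reach 50%, and 34 of the 71 members held under 1% each. Trav14-1, the most used, held 2.93% to 7.51% in TLCP (median 4.88%) and 4.53% to 6.61% in Tfh (median 5.19%). The population means correlated at 0.89 across the 71 Trav members, as a description, and lay 13.6 percentage points apart.

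Of 49 tested Trav segments, 1 was higher and 1 was lower in share in TLCP, beside 70.1% and 2.84% of all genes under the Trav scaling, and 3 had an unadjusted p under 0.05. The median log2 fold change of share was -0.02 for these segments and 0.59 for all genes. As for Trbv, the adjustment over all genes changed the p-values of the segments little. For Trav4-4-dv10 the unadjusted edgeR p was 0.00517. The limma adjustment also ran over all genes, and none was made over the 49 segments alone. A few of 49 tests would have an unadjusted p under 0.05 by chance alone. Trav4-4-dv10, whose name marks that it can also join the delta chain, held 2.68%, 1.73%, 2.49%, 1.32%, 2.29% and 1.54% in TLCP libraries 1 to 6. In Tfh libraries 1 to 6 it held 2.77%, 2.35%, 3.43%, 4.06%, 3.17% and 5.67%. The TLCP library was lower in all 6 pairs, and TLCP 1 and TLCP 3 overlapped the lower Tfh libraries. The means were 2.01% ± 0.55 and 3.58% ± 1.18 (SD, n = 6), a log2 fold change of -0.83 ± 0.28 (SE, edgeR adjusted p = 0.00886, limma 0.0375), and the exact permutation p was 0.00866. Without Tfh 6 the log2 fold change was -0.65 (edgeR adjusted p = 0.0525), and within libraries 1 to 3 it was -0.31 (adjusted p = 0.425). Of all 12015 genes, 33.4% were called by the limma fit that holds the Trav shares, in which 0 Trav segments were higher and Trav4-4-dv10 was lower. Trav4-3, whose V exon is 89.2% identical to that of Trav4-4-dv10, moved the other way. It held a median of 3.05% in TLCP (1.88% to 6.35%) and 2.22% in Tfh (1.83% to 3.07%), with TLCP 5 and TLCP 6 well above the rest, and a log2 fold change of 0.67 ± 0.28 (edgeR adjusted p = 0.0367, limma 0.160). Its exact permutation p was 0.0844, and it missed the threshold without TLCP 5 or 6 or Tfh 2, 3 or 4 (log2 fold change 0.46 to 0.62, edgeR adjusted p 0.0665 to 0.151).

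With the library number as a block, 5 Trav segments passed instead of 2. In that fit, 8951 of all 12015 genes were called higher and 387 lower. Trav21-dv12 was then higher in TLCP (log2 fold change 0.80, edgeR adjusted p = 0.00208), whereas without the block it was 0.78 ± 0.41 (adjusted p = 0.101). Its share was higher in TLCP in all 6 pairs, at 2.44%, 5.10%, 8.69%, 1.88%, 4.49% and 5.55% in TLCP libraries 1 to 6 against 2.07%, 3.86%, 4.75%, 0.744%, 1.98% and 2.84% in Tfh. Number 3 was the highest in both populations and number 4 the lowest in both. The unblocked test passed without TLCP 4 (0.94, adjusted p = 0.0357) or without Tfh 3 (1.01, adjusted p = 0.0325). Trav7-5 (0.67, adjusted p = 0.0227) and Trav8d-1 (-0.93, adjusted p = 0.0491) were the others that passed with the block, and they were named after their values were seen.

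**Figure D3:**
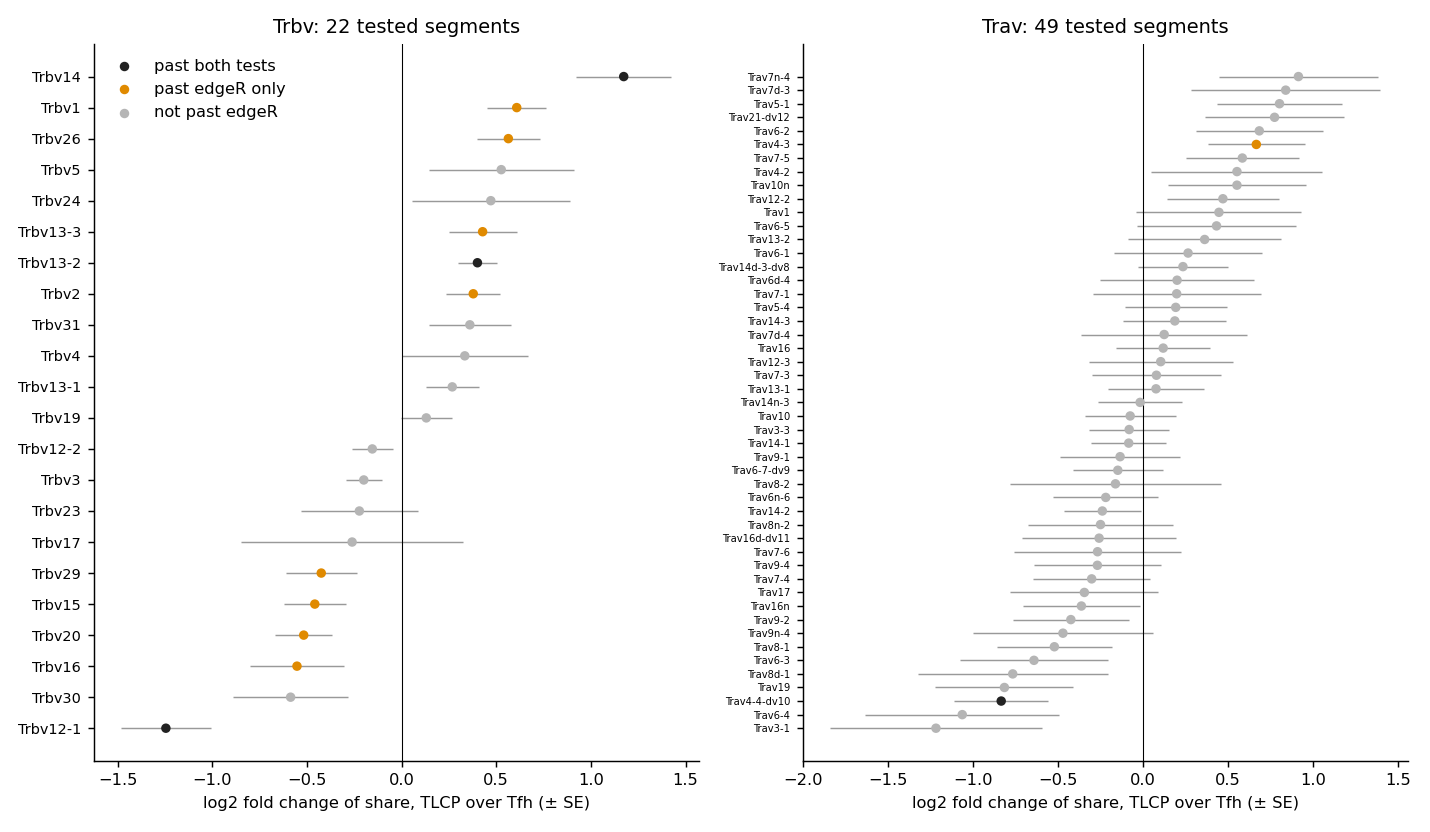
Log2 fold change of share, TLCP over Tfh (x axis, with SE), for the 22 tested Trbv (left) and 49 tested Trav (right) segments. Black points passed both the edgeR and the limma test, orange points passed edgeR alone and grey points did not pass edgeR; Trbv12-1 lies at -1.24 and Trbv14 at 1.17.

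Some segments were high in 1 library. In Tfh library 4, Trav6-4 took 10.8% of the Trav counts (160 of 1479, 95% Wilson interval 9.34% to 12.5%), while the other 11 libraries lay between 0.421% and 2.77%. The same library held 5.41% Trav19 (4.37% to 6.68%), against 0.339% to 2.07% elsewhere. It also held 7.71% Trbv17 (336 of 4357 counts, 6.96% to 8.54%). TLCP library 4, which carries the same number, held the highest Trbv17 share of its own population, 3.69% (3.17% to 4.31%), and the other 10 libraries lay between 0.761% and 2.53%. For Trav6-4 and Trav19, TLCP 4 held 1.32% and 1.67% and stood within the range of the other TLCP libraries. Elsewhere, Trav6-1 held 5.0% in TLCP 1 (4.04% to 6.16%) and 2.96% in Tfh 1, each the highest of its population. Trav21-dv12 reached 8.69% in TLCP 3 (7.29% to 10.3%), and Tfh 3 was again the highest Tfh library. None of Trav6-4, Trav19, Trav6-1 and Trbv17 passed the share test (edgeR adjusted p 0.109, 0.0718, 0.582 and 0.683). Trav19 passed without TLCP 1 (log2 fold change -1.01, adjusted p = 0.0384), Tfh 2 (-0.95, 0.0410) or Tfh 3 (-0.97, 0.0389), each of which left Tfh 4 in. Intervals cover counting error only, since no molecular identifiers are described.

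**Figure D4:**
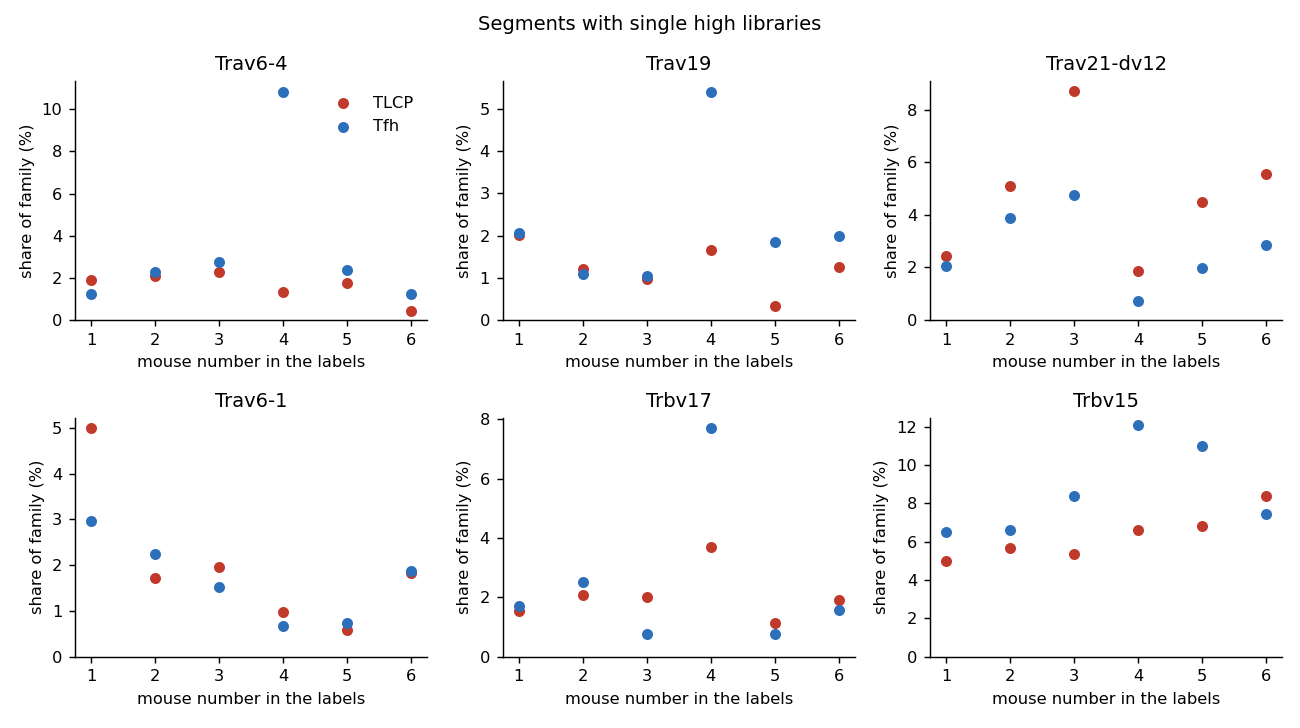
Share of each segment among the counts of its family (y axis, percent) against the number in the labels (x axis) for TLCP (red) and Tfh (blue). Tfh 4 stands at 10.8% for Trav6-4, 5.41% for Trav19 and 7.71% for Trbv17, and TLCP 4 is the highest TLCP library for Trbv17.

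Libraries that share a number also deviated together in V usage, more clearly for Trav. After the population mean was subtracted from each member's share, same-numbered TLCP and Tfh libraries correlated at 0.0925 to 0.357 across the 71 Trav members (median 0.282), whereas the 30 pairs with other numbers ran from -0.332 to 0.139 (median -0.018). Of the 12 libraries, 11 correlated best with the library of their own number. For the 25 Trbv members the same-numbered pairs ran from -0.227 to 0.654 (median 0.317), the other pairs from -0.630 to 0.604 (median -0.0237), and 7 of 12 libraries correlated best with their own number. The points are shares that sum to a whole within a library, so these values are a description. By distance, the profiles of the beta chain were not closer within a number: same-numbered pairs lay 12.3 to 17.4 percentage points apart (median 15.5) and other TLCP and Tfh pairs 8.61 to 22.2 (median 15.3). Within a population, Trbv profiles lay a median of 10.2 points apart in TLCP and 13.1 in Tfh. Trav profiles lay a median of 22.9 points apart for the same number, 25.9 for other numbers, 26.9 within TLCP and 21.9 within Tfh. A library held 2.57 to 3.53 Trbv counts per Trav count, so the Trav distances carry more counting error.

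The evenness of usage was close between the populations. The effective number of segments, the exponential of the Shannon entropy, is the number of equally used segments that would give the observed evenness. For Trbv it was 14.5 ± 0.5 in TLCP (13.8 to 15.2) and 13.8 ± 0.7 in Tfh (13 to 14.6; SD, n = 6). For Trav it was 45.1 ± 4.3 (38.3 to 50.2) and 45.9 ± 4.0 (38.2 to 49.0). Tfh 4, the library with the Trav6-4 and Trav19 peaks, was the lowest Tfh library, and TLCP 6 was the lowest TLCP library. Thinned to equal counts, the Trbv means were 14.5 and 13.7, and the Trav means were both 45.0.

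The level of V transcripts as a whole was lower in TLCP. Summed over each locus, Trbv made up 398 to 474 counts per 1e6 assigned reads in TLCP (mean 426 ± 31) and 566 to 697 in Tfh (630.1 ± 49.6; SD, n = 6), with no overlap. Trav made up 126 to 177 in TLCP (152 ± 18) and 161 to 238 in Tfh (204 ± 28), and the ranges overlapped on this scale. As TMM-scaled CPM, neither sum overlapped: Trav came to 116 to 164 in TLCP and 187 to 238 in Tfh, a ratio of means of 0.664, and Trbv to 356 to 430.1 and 631 to 709.6, a ratio of 0.602. Of 49 tested Trav segments, 0 rose and 10 fell in TMM-scaled level, and of 22 tested Trbv segments 0 rose and 12 fell, beside 16.8% of all genes higher and 16.4% lower. The median log2 fold change of level was -0.59 for the Trav and -0.52 for the Trbv segments and 0.00 for all genes. In level, Trbv12-1 had the largest decrease among the Trbv segments (log2 fold change -1.99 ± 0.23, edgeR adjusted p = 2.05e-06). Trbv3 had a log2 fold change of -0.93 ± 0.09 (edgeR adjusted p = 1.67e-07). Trbv14, which had a larger share in TLCP, did not differ in level beyond the threshold (0.43 ± 0.24, edgeR adjusted p = 0.17), and Trbv13-2 was lower in level (-0.33 ± 0.11, edgeR adjusted p = 0.0264) although its share was higher. The authors' deposited table of their own comparison lists 14 Trav and 12 Trbv members with a negative log2 fold change at an adjusted p under 0.05 and 0 with a positive one. The share over all genes of that comparison was not computed, so these counts stand without a background of their own. In a separate DESeq2 fit of level made here, 2222 of 12015 genes were higher and 2005 lower. With library totals alone as the scaling, the median of all genes moved to 0.17 and 13 segments fell. Of all 12015 genes, 899 were then lower and 3199 higher.

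**Figure D5:**
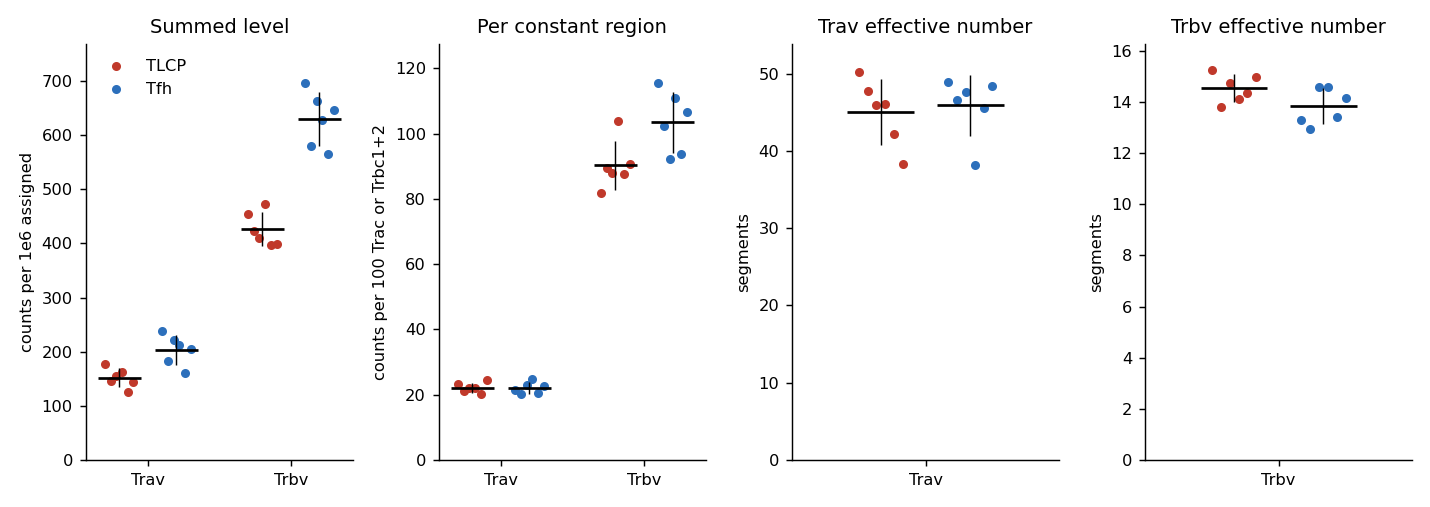
From left to right: summed Trav and Trbv counts per 1e6 assigned reads, V counts per 100 counts of the constant region genes, and the effective number of Trav and of Trbv segments, for 6 TLCP (red) and 6 Tfh (blue) libraries with mean (bar) and SD (whisker). Summed Trbv levels do not overlap between the populations, while Trav counts per 100 Trac counts are level at about 22.2 and 22.1.

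The rest of the receptor was compared in TMM-scaled CPM. Of 8 genes of the receptor complex, 6 fell and 1 rose in TLCP, with a median log2 fold change of -0.46. Trac, the alpha constant region, had 526 to 720 TMM-scaled CPM in TLCP and 910 to 1058 in Tfh, without overlap (log2 fold change -0.59 ± 0.08, edgeR adjusted p = 5.28e-06). The beta constant genes fell as well: Trbc1 by 0.56 and Trbc2 by 0.53 on the log2 scale (edgeR adjusted p = 8.42e-05 and 5.13e-05). Cd3d and Cd3g, signalling subunits, fell by 0.59 and 0.38 (edgeR adjusted p = 2.87e-06 and 8.23e-05), and the coreceptor Cd4 fell by 0.40 (edgeR adjusted p = 3.25e-05). Cd3e, another signalling subunit, was at 502 ± 29 CPM in TLCP and 519 ± 19 in Tfh (SD, n = 6) and did not pass (log2 fold change -0.05 ± 0.06, edgeR adjusted p = 0.535), and Cd247, the zeta chain, rose (0.20 ± 0.07, edgeR adjusted p = 0.029). Relative to the constant region, Trav counts came to 22.2 ± 1.5 per 100 Trac counts in TLCP and 22.1 ± 1.8 in Tfh. Trbv counts came to 90.2 ± 7.4 per 100 Trbc1 and Trbc2 counts in TLCP and 103.5 ± 9.3 in Tfh, with overlapping ranges (81.7 to 104 and 92.1 to 115). Trbc2 held 62.4% ± 1.8 and 61.8% ± 2.8 of the beta constant counts. Of 76 rows for joining (J) and diversity (D) segments, 38 were tested, with a median log2 fold change of -0.14. None was higher, no J segment was called, and the 1 lower was the D segment Trbd1 (-1.01, edgeR adjusted p = 0.0063), beside the same 16.8% and 16.4% of all genes.

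Transcripts of other cells differed between the same libraries. The 8 B cell genes summed to 4705 to 23672 CPM in TLCP and 1174 to 2027 in Tfh, 6 of 8 higher in TLCP, and the 5 plasma cell genes to 712 to 3310 and 80.4 to 248, all 5 higher. Over all genes, 16.8% were called higher and 16.4% lower in level. In both populations the most abundant B cell gene was Ighm, with 10826 ± 7155 CPM in TLCP and 1194 ± 304 in Tfh. The 3 basophil genes summed to 12.5 to 62.3 in TLCP and 0 to 3.65 in Tfh. The 4 dendritic cell genes summed to 5.27 to 18 and 0.706 to 6.19, with 2 of 3 tested genes higher in TLCP. Macrophage and monocyte genes (28.1 to 104 and 17.2 to 78.3) and erythroid genes (31.2 to 87.2 and 3.10 to 71.8) had 0 of 3 tested genes called each. Their part in the lower V levels was not tested. Without the immunoglobulin genes in the denominator the ratio of the TLCP to the Tfh mean was 0.692 for Trbv and 0.760 for Trav. With them it was 0.677 and 0.745. All other transcripts of these cells stayed in that denominator, so their part cannot be read from these ratios. Shares within a locus do not use that denominator.

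The joining segments of NKT and MAIT receptors had few counts in every library, as alpha joining segments did in general. Traj18 had 181 and Traj33 had 69 summed counts, within the range of the Traj rows, from 2 (Traj54) to 397 (Traj9). Some other genes on the lists for other T cell types had more. CPM is not corrected for length, so levels of joining segments cannot be set against those of whole genes. Trav11 and Trav11d had 0 counts and share an identical sequence, so NKT cells could not be read from them. The joining segment of that receptor, Traj18, was at 1.27 to 2.0 CPM in TLCP and 0.494 to 3.33 in Tfh, and Zbtb16, the transcription factor of NKT and MAIT cells, was at 0.489 to 1.90 and 0.265 to 1.75. The 7 genes of the NKT and MAIT list summed to 143 to 323 CPM in TLCP and 110 to 145 in Tfh. Of 6 tested, 1 was higher and 1 lower, beside 16.8% and 16.4% of all genes. The lower one was Klrb1c, at 4.20 CPM in TLCP and 11.5 in Tfh, which is also on the natural killer cell list below. The higher one was Il18r1, a cytokine receptor chain that other T cells also express, at 133 ± 60 and 33.1 ± 18 CPM (SD, n = 6; log2 fold change 2.02, edgeR adjusted p = 0.00565). The chemokine receptor Cxcr6 (43.2 and 38.6 CPM) and Mr1, which presents antigen to MAIT cells (35.8 and 41.2 CPM), did not pass. Trav1, the MAIT alpha segment, held 0.548% to 1.44% of Trav counts in TLCP (median 0.958%) and 0.192% to 1.49% in Tfh (median 0.719%), without a difference past the threshold (log2 fold change 0.45 ± 0.49, edgeR adjusted p = 0.403). Its partner Traj33 was at 0 to 1.47 and 0.238 to 0.982 CPM. Of 7 listed gamma delta genes, 4 were matched by symbol, and the gamma constant genes on the list were not analysed here. Trdc had 4.01 to 11.7 CPM in TLCP and 0 to 9.90 in Tfh and did not pass (edgeR adjusted p = 0.583). The CD8 genes summed to 5.58 to 17.6 and 3.34 to 9.62 CPM, 0 of 2 called, and the 4 natural killer cell genes to 12.2 to 32.0 and 14.0 to 21.5. Within that last list, 2 genes were tested and moved in opposite directions. Eomes, a transcription factor also found in T cells, was higher in TLCP (18.1 ± 6.7 against 4.26 ± 1.17 CPM, log2 fold change 2.10, edgeR adjusted p = 4.1e-06), and Klrb1c was lower (4.20 ± 1.1 against 11.5 ± 3.2, -1.46, edgeR adjusted p = 3.45e-05). Rag2 and Ptcra, which mark developing T cells, had 0 counts in all 12 libraries. The recombination genes Rag1 and Dntt were low, and neither was tested. Dntt had 0.958 to 2.43 CPM in TLCP and 0 to 0.716 in Tfh (103 and 23 summed counts). Rag1 had 0 to 0.631 and 0 to 0.119 CPM (15 and 1 summed counts).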

How the data were processed

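The authors' deposited count files hold raw read counts per gene, and the sense-strand column was used. The submitters' processing notes name GRCm38, STAR 2.7.1a, bcl2fastq 2.20 and DESeq2 1.30.1. Multimapping, ambiguous, unmapped and no-feature reads (44.9% to 56.4% of reads) stayed out. The deposited signal of the authors' DESeq2 table (count divided by a size factor) gave whole reads for 100% of values, equal to the stranded counts (tolerance 0.01 reads). The same table holds the authors' log2 fold changes and adjusted p-values, and the authors' TPM values served as an alternative. No annotation release is named in the sources used here. All 165 V rows had the spans of GENCODE M21.

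Share of a segment is its percentage of all Trav or all Trbv counts. In R 4.3.3, edgeR 4.0.16 (filterByExpr, quasi-likelihood test, robust, 2-sided) was fitted to 12015 genes, with the Trav or Trbv total as library size for shares and TMM for levels. P-values were adjusted by Benjamini and Hochberg over all genes (threshold 0.05), and each SE was derived from the log2 fold change and its F statistic. Alternatives used limma 3.58.1 and DESeq2 1.42.0. The fits were also run on simulated data with 200 changed genes. Those libraries were drawn independently, with means and spread taken from these data, so they do not bear on the inferred pairing. Sequences were compared with edlib 1.3.9.post1.

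The members, lists and tests were chosen with earlier results of these data known. The text names, per locus, the 6 most used segments, those past the share test (up to 8 a direction), the 4 with the largest gap between the highest and next library, the segments of invariant receptors and the 2 on each side of the 10-count rule. Of the gene lists, all receptor complex genes and up to 3 abundant genes of the other lists were considered for naming. P-values measure the spread between these libraries. The main fits and the exact permutation tests treated the 12 libraries as independent. Library number entered only as a block in an alternative fit. It may pair the samples, since deviations from the group means over the other genes correlated at 0.158 to 0.362 between libraries of the same number. Of 12 libraries, 10 correlated best with their own number. This pairing is inferred, not labelled, and if it holds, the unblocked p-values leave it out.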

Additional observations from a re-analysis of the deposited data

Results flagged for a closer look

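Values that stood apart from the other 5 libraries of their group by Dixon's ratio at its 95% critical value were collected from 82 groups of 6 libraries. Chance alone flags about 1 in 20 groups that were not chosen by their values. Some segments, such as Trav6-4, Trav19, Trav6-1 and Trbv2, were named for the gap between their highest and next library. That rate does not hold for them, and their flags describe the choice. Tfh library 4 stood apart as the highest Tfh library for Trav6-4 (10.8% of Trav counts), Trav19 (5.41%) and Trbv17 (7.71% of Trbv counts), and as the lowest for the effective number of Trav segments (38.2). TLCP library 4 stood apart as the highest TLCP library for Trbv17 (3.69%) and for Trbv12-2 (6.56%). TLCP library 1 was the high one for Trav6-1 (5.0%), and TLCP library 5 for Trbv2 (10.9%). Tfh library 6 was the high one for Trbv13-2 (8.74%), which still lay below 5 of the 6 TLCP libraries. Tfh library 3 was the high one for the beta constant gene Trbc1 (301 CPM).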

How the results depend on the processing

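No called share of a named segment changed direction under any alternative run, and of 13 called shares 7 passed without any 1 library. The number of Trav segments that differed in share was 2. It was 5 with the replicate block, 5 without a filter on low counts, 1 with libraries 1 to 3 of each population and 5 with libraries 4 to 6. It was 4 with DESeq2, 1 with limma on log2(share in percent + 0.1), and 1 to 4 when single libraries were left out (4 without TLCP 1, 3 or 4, and 1 without TLCP 5). Under the Trav scaling, 8427 of all 12015 genes were higher and 341 lower in the main fit. These numbers were 8951 and 387 with the block, 6752 and 323 with libraries 1 to 3, and 7090 and 249 with libraries 4 to 6. They were 8507 and 351 with DESeq2, 2036 and 1981 in the limma table, and 9583 and 483 of 26259 without a filter. Without single libraries, 7781 to 8631 were higher and 314 to 365 lower. The number of Trbv segments was 11. It was 13 with the replicate block, 5 with libraries 4 to 6, 3 with limma and 8 to 11 without single libraries. Under the Trbv scaling, 9706 of all genes were higher and 292 lower in the main fit. These numbers were 9810 and 316 with the block, 8416 and 228 with libraries 4 to 6, and 2041 and 1983 in the limma table. Without single libraries, 9423 to 9731 were higher and 269 to 289 lower. The number of segments lower in level was 22. It was 33 with the replicate block, 14 with libraries 1 to 3 of each population, 14 with libraries 4 to 6, 13 with library totals alone, 11 with limma on log2(TPM + 1), where 1 segment was higher, and 19 to 25 without single libraries. Of all 12015 genes, 1969 were lower in level in the main fit and 2161 with the replicate block. The numbers were 1627 with libraries 1 to 3, 1303 with libraries 4 to 6 and 899 with library totals alone. With TPM, 473 of 12753 genes were lower and 3180 higher, and the median of all genes moved to 0.25. The cause of these changes was not tested. The subsets by library number also hold fewer samples than the main fit. The ratio of the summed Trbv level in TLCP to that in Tfh, 0.677, was 0.618 without the ribosomal RNA-like gene CT010467.1 in the denominator, and the ratio of the effective number of Trbv segments, 1.05, was 1.11 with the inverse Simpson index. Leaving the 2 segments with the largest single-library peaks out of each total was chosen after seeing the data and gave 2 Trav and 9 Trbv segments. Of all 12015 genes, 8047 were then higher and 364 lower under the Trav scaling, and 9832 and 278 under the Trbv scaling. Family totals per library limit the precision of the Trav shares more than that of the Trbv shares.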
